A study of Homo sapiens with 11 samples.

Results

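Messenger RNA of 9 genes of fatty acid oxidation and lipid droplets was followed in HCT116 cells, a human colorectal carcinoma line of epithelial cells. The genes are PLIN2, ACSL1, CPT1A, CPT2, ACADVL, ACADM, HADHA, HADHB and ETFDH. They were chosen by symbol, each matched to 1 Ensembl identifier, and are 9 of the 61464 rows of the deposited count table. The line is labelled as carrying a ras mutation in every library. Cells had been exposed for 48 h to GTEA1 (4 libraries), to GTEA7 (4 libraries) or to DMSO, the solvent control (3 libraries). Both agents are triterpenoid extracts of the mushroom Ganoderma, and by its title the series concerns their effect on colon cancer stemness and migration. The labels give no dose, put all libraries in batch 1, and do not say whether the libraries of a group came from separate cultures, so the p-values below measure the spread between these libraries only.

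Fatty acids enter oxidation as acyl-CoA. Long chains are joined to coenzyme A by acyl-CoA synthetases, moved into mitochondria by the carnitine shuttle, and shortened there in a cycle of dehydrogenation, hydration, a further dehydrogenation and thiolysis. Electrons of the first step pass through the electron transfer flavoprotein to the respiratory chain, while fatty acids that are not oxidised can be stored as triglyceride in lipid droplets, whose surface is coated by perilipins.

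After GTEA1 the pathway did not move in 1 direction. PLIN2, ETFDH and ACADVL were higher than in DMSO, CPT1A, CPT2, ACADM and HADHA were lower, and ACSL1 and HADHB did not pass the test. After GTEA7, PLIN2, ACSL1, ACADM and CPT1A were higher and none of the 9 was lower. The 2 extracts differed from each other in 8 of the 9 genes, where 72.7% of all tested genes differed between them.

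Library totals were 13742326 to 16433111 counts with GTEA1, 14955685 to 19304211 with GTEA7 and 13866350 to 17431515 with DMSO. Levels are given as CPM, counts per library total with each total scaled by its trimmed mean of M values (TMM) factor. Differences were tested with edgeR's quasi-likelihood F test, p-values were adjusted by the Benjamini-Hochberg method over 17963 genes, and an adjusted p under 0.05 counted as passed. All 9 genes were among those tested. Fold changes were relative to the TMM scaling. With library totals alone, the median over all tested genes for GTEA1 against DMSO moved to -0.17 on the log2 scale, and 4828 genes were higher and 8179 lower, in place of 6390 and 6505. For GTEA7 against DMSO the same change moved the median to -0.060 and gave 1255 higher and 2954 lower, in place of 2159 and 1877. The 5 epithelial markers EPCAM, CDH1, KRT8, KRT18 and KRT19 summed to 2709 to 2839 CPM with GTEA1, 2217 to 2312 with GTEA7 and 2221 to 2369 with DMSO. They did not move together: the medians of KRT19 (1042 CPM with GTEA1 and 465 with DMSO), EPCAM (357 and 231) and CDH1 (164 and 146) were higher with GTEA1, and those of KRT8 (976 and 1180) and KRT18 (266 and 326) were lower. The 14 markers of other cell types summed to 40.3 to 47.7, 39.0 to 48.7 and 55.5 to 57.7 CPM in the same order, nearly all from the collagen gene COL1A1. A further collagen gene, COL3A1, had medians of 0.104 CPM with GTEA1, 1.79 with GTEA7 and 2.62 with DMSO. COL1A2, DCN, LUM, CD3E, CD68 and ADIPOQ had a median of 0 CPM in every group, and the leukocyte marker PTPRC 0.037 to 0.081 CPM. In bulk RNA, fewer cells of a kind and less of an RNA per cell cannot be told apart, and the part of the marker differences in the results was not tested.

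PLIN2 encodes perilipin 2, the droplet coat protein of most cells outside fat tissue. PLIN2 had 44.4, 43.6, 39.4 and 46.1 CPM in GTEA1 replicates 1 to 4, 29.5, 29.2, 28.7 and 30.5 CPM in GTEA7 replicates 1 to 4, and 22.3, 23.3 and 21.5 CPM in DMSO replicates 1 to 3. The 3 groups did not overlap: every GTEA1 library was above every GTEA7 library, and every GTEA7 library above every DMSO library. PLIN2 rose 1.93-fold with GTEA1 (log2 fold change 0.95 ± 0.06, adjusted p = 7.5e-20) and 1.31-fold with GTEA7 (0.39 ± 0.06, adjusted p = 2.4e-06). GTEA1 also exceeded GTEA7, with a log2 fold change of 0.56 ± 0.05, adjusted p = 1.3e-13.

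The PLIN2 promoter is shown because PLIN2 was the only one of the 9 genes raised against DMSO by both extracts and higher with GTEA1 than with GTEA7. The window runs from 250 bases before to 50 after the RefSeq start, at chr9:19127443-19127742 of GRCh38.p14, minus strand, read 5′ to 3′, with motif matches in capitals:
PLIN2: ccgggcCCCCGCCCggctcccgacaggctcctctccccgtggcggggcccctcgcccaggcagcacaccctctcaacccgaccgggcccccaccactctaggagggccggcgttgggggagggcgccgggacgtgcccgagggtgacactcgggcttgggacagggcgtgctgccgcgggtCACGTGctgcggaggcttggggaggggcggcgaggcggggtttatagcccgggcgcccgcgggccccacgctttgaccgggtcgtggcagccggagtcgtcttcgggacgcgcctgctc
Of the 9 genes, 8 have such windows in the RefSeq table used here, and 7 motifs were searched in them on both strands: the E-box CACGTG, the antioxidant response element core TGACNNNGC, the C/EBP-ATF element TGATGNAAT, the estrogen-related receptor element TCAAGGTCA, the peroxisome proliferator response element (AGGTCA, any 1 base, AGGTCA), the nuclear respiratory factor 1 site (GCGC, any 1 base, TGCGC) and the Sp1 box GGGCGGGG. In PLIN2 the second run of capitals is an E-box beginning 69 bases before the start, and the first is an Sp1 box on the other strand beginning 244 bases before it, and the matches do not overlap. The E-box was present in 7.26% of 35116 promoter windows of the same length and in no window of the other members, and the Sp1 box in 22.8% of all windows. A match is a description of letters and not evidence of binding.

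**Figure D1:**
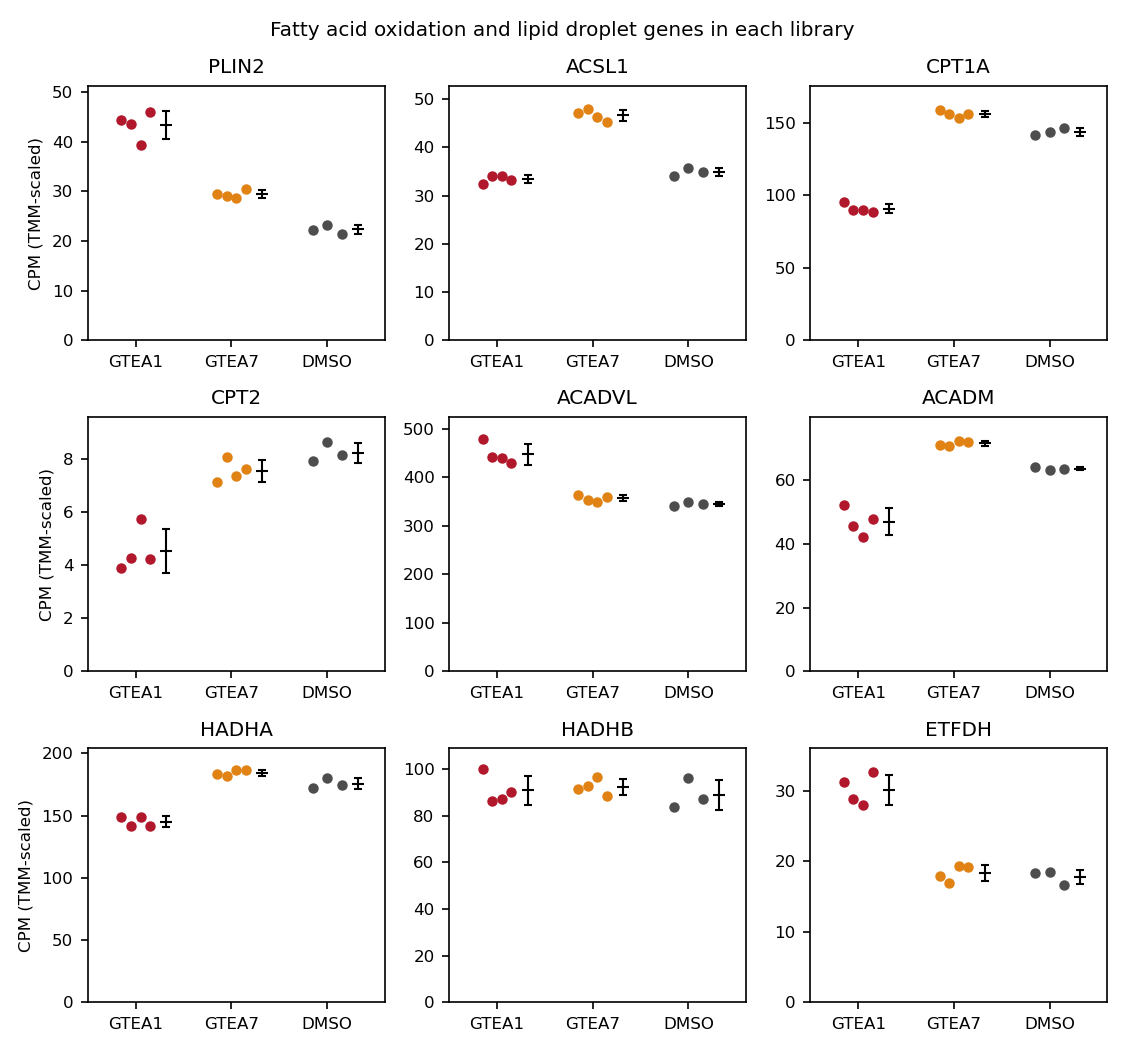
CPM (TMM-scaled, linear axis from 0) of the 9 genes in each library, with GTEA1 left, GTEA7 in the middle and DMSO right; points are libraries, and bars are the group mean and SD. PLIN2 separates the 3 groups, ETFDH and ACADVL are highest with GTEA1, CPT1A, CPT2, ACADM and HADHA are low with GTEA1, and ACSL1 is high with GTEA7.

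ACSL1 encodes a long-chain acyl-CoA synthetase, which activates fatty acids for oxidation or for lipid synthesis. ACSL1 had 32.4, 34.0, 34.0 and 33.1 CPM in GTEA1 replicates 1 to 4, 47.0, 48.0, 46.3 and 45.3 CPM in GTEA7 replicates 1 to 4, and 34.1, 35.7 and 34.8 CPM in DMSO replicates 1 to 3. All 4 GTEA7 libraries were above every other library, while the GTEA1 libraries lay just below those with DMSO. ACSL1 rose 1.34-fold with GTEA7 (log2 fold change 0.42 ± 0.05, adjusted p = 4.3e-09). With GTEA1 the log2 fold change was -0.063 ± 0.054, adjusted p = 0.29, which did not pass, although it did with library totals alone (-0.22, adjusted p = 0.00031). The difference between the extracts passed, at -0.48 ± 0.05, adjusted p = 6.4e-13.

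Relatives of ACSL1 that passed in both comparisons with DMSO were not all alike. ACSL3 and ACSL5, further long-chain synthetases, fell with GTEA1 and rose with GTEA7. ACSL5 averaged 95.6 ± 4.83 CPM with GTEA1, 185 ± 5.45 with GTEA7 and 131 ± 5.20 with DMSO (SD, n = 4, 4 and 3), with log2 fold changes of -0.46 ± 0.04, adjusted p = 2.2e-14, and 0.50 ± 0.04, adjusted p = 9.8e-15. ACSL3 had log2 fold changes of -0.17 ± 0.03, adjusted p = 2e-05 with GTEA1 and 0.39 ± 0.03, adjusted p = 3.4e-13 with GTEA7. ACSL4, which prefers arachidonic acid, rose with both, by 0.21 ± 0.04 (adjusted p = 4.1e-06) with GTEA1 and 0.47 ± 0.04 (adjusted p = 2.4e-14) with GTEA7, but its rise with GTEA1 did not pass with library totals alone. ACSL1, ACSL3, ACSL4 and ACSL5 were each lower with GTEA1 than with GTEA7, ACSL5 by the most (-0.96 ± 0.04, adjusted p = 2.5e-28). ACSL3 was added to these after its values were seen.

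CPT1A encodes the outer-membrane carnitine palmitoyltransferase, the rate-controlling step of the carnitine shuttle, which malonyl-CoA inhibits. CPT1A had 95.5, 90.1, 89.7 and 88.4 CPM in GTEA1 replicates 1 to 4, 159, 156, 154 and 156 CPM in GTEA7 replicates 1 to 4, and 141, 144 and 146 CPM in DMSO replicates 1 to 3. No group overlapped another: GTEA7 was the highest, DMSO next and GTEA1 the lowest. CPT1A was 1.58-fold lower with GTEA1 (log2 fold change -0.66 ± 0.04, adjusted p = 2e-21). The difference between the extracts was larger, at -0.78 ± 0.04, adjusted p = 1e-25. The rise with GTEA7 was small, at 0.12 ± 0.04, adjusted p = 0.012. It did not pass with library totals alone (0.069, adjusted p = 0.18) or without DMSO replicate 1 (0.11, adjusted p = 0.058).

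CPT1A had none of the 7 motifs in its window at chr11:68844228-68844527 (GRCh38.p14, minus strand), shown for comparison with PLIN2 because the 2 genes moved in opposite directions with GTEA1. No match says only that these letters are not in this window:
CPT1A: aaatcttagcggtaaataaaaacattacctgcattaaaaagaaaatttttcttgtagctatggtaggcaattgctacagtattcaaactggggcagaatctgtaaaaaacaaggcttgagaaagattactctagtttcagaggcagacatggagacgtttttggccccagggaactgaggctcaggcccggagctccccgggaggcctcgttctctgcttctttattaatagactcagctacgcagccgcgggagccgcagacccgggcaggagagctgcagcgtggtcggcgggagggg

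CPT2 encodes the inner-membrane partner, which returns the acyl group to coenzyme A inside the mitochondrion. CPT2 had 3.91, 4.26, 5.76 and 4.24 CPM in GTEA1 replicates 1 to 4, 7.14, 8.09, 7.37 and 7.62 CPM in GTEA7 replicates 1 to 4, and 7.93, 8.64 and 8.14 CPM in DMSO replicates 1 to 3. It had the fewest reads of the 9 genes, 51 to 160 counts a library. The GTEA1 libraries were the lowest, and those with GTEA7 and DMSO overlapped. CPT2 fell with GTEA1, with a log2 fold change of -0.85 ± 0.12, adjusted p = 2.1e-08. With GTEA7 the value was -0.12 ± 0.11, adjusted p = 0.45, which did not pass, and between the extracts it was -0.73 ± 0.12, adjusted p = 2.2e-07. In GENCODE v29, 11% of the CPT2 exon bases are shared with AL606760.2 on the other strand, and without a stated strand setting their reads cannot be told apart.

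The 2 palmitoyltransferases were also set against each other within each library, which needs no scaling between libraries. The ratio of CPT1A to CPT2 counts was 24.2, 21.0, 15.5 and 20.7 in GTEA1 replicates 1 to 4, 22.2, 19.3, 20.8 and 20.4 in GTEA7 replicates 1 to 4, and 17.8, 16.6 and 17.9 in DMSO replicates 1 to 3. All GTEA7 libraries were above all DMSO libraries, and GTEA1 spanned both. The difference in mean log2 ratio was 0.21 for GTEA1 against DMSO (exact two-sided permutation test, p = 0.257, adjusted over 6 ratio tests 0.386). For GTEA7 against DMSO it was 0.24, with an exact permutation p of 0.0286, the smallest that 4 against 3 libraries can give, and an adjusted p of 0.0571. Between the extracts it was -0.038 (exact permutation p = 0.857, adjusted 0.857). No ratio difference passed after adjustment. With these group sizes none could pass unless most of the 6 tests gave the smallest possible p, so not passing says little here.

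ACADVL encodes very long-chain acyl-CoA dehydrogenase, which takes the first electrons from the longest chains at the inner mitochondrial membrane. ACADVL had 478, 442, 439.7 and 429 CPM in GTEA1 replicates 1 to 4, 363, 353, 349 and 360 CPM in GTEA7 replicates 1 to 4, and 340, 348 and 345 CPM in DMSO replicates 1 to 3. GTEA1 stood above the other groups with no overlap. The GTEA7 libraries were all above those with DMSO, by a margin small against the spread within groups. ACADVL rose 1.30-fold with GTEA1 (log2 fold change 0.38 ± 0.04, adjusted p = 1.3e-13) and was higher with GTEA1 than with GTEA7 (0.33 ± 0.03, adjusted p = 7.3e-13). With GTEA7 the value of 0.049 ± 0.035, adjusted p = 0.35 did not pass.

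ACADM encodes medium-chain acyl-CoA dehydrogenase, which acts on chains already shortened by earlier rounds. ACADM had 52.3, 45.6, 42.3 and 47.7 CPM in GTEA1 replicates 1 to 4, 71.1, 70.7, 72.4 and 72.1 CPM in GTEA7 replicates 1 to 4, and 64.3, 63.1 and 63.6 CPM in DMSO replicates 1 to 3. The 3 groups did not overlap, and their order was that of CPT1A: GTEA7 highest, DMSO next, GTEA1 lowest. ACADM fell with GTEA1 (log2 fold change -0.44 ± 0.05, adjusted p = 4.5e-11) and rose with GTEA7 (0.17 ± 0.05, adjusted p = 0.0058). The rise with GTEA7 did not pass with library totals alone (0.12, adjusted p = 0.069). Between the extracts the difference was -0.61 ± 0.05, adjusted p = 6e-17. ACADM and ACADVL, which do the same chemistry on chains of different length, thus moved in opposite directions with GTEA1.

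ACADM shares 3.28% of its exon bases with RABGGTB on the same strand, and RABGGTB rose in both comparisons, by a log2 fold change of 0.51 (adjusted p = 1.3e-17) with GTEA1 and 0.32 (adjusted p = 9.7e-10) with GTEA7. The ACADM window, at chr1:75724459-75724758 (GRCh38.p14, plus strand), is shown because ACADM had the order of groups of CPT1A and, like it, passed in every comparison. HADHA and ACSL1 had that order too, but under TMM scaling HADHA did not pass with GTEA7, nor ACSL1 with GTEA1. Capitals mark an Sp1 box on the other strand, beginning 40 bases before the start:
ACADM: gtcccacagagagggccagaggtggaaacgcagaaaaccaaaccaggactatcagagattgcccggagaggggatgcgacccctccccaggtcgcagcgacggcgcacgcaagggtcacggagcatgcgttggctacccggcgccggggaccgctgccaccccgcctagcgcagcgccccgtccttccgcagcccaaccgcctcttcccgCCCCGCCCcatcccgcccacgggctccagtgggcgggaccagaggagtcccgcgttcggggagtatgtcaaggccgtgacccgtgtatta

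HADHA and HADHB encode the alpha and beta subunits of the mitochondrial trifunctional protein, which does the last 3 steps of the cycle for long chains. HADHA had 149, 141, 149 and 142 CPM in GTEA1 replicates 1 to 4, 183, 182, 187 and 186 CPM in GTEA7 replicates 1 to 4, and 172, 180.2 and 175 CPM in DMSO replicates 1 to 3. GTEA1 was below both other groups, and every GTEA7 library was above every DMSO library. HADHA fell with GTEA1 (log2 fold change -0.28 ± 0.04, adjusted p = 2.2e-09), and was lower with GTEA1 than with GTEA7 (-0.35 ± 0.03, adjusted p = 3.2e-13). The value with GTEA7, 0.070 ± 0.035, adjusted p = 0.16, did not pass.

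The beta subunit gene passed in no comparison under TMM scaling. HADHB had 100, 86.4, 87.3 and 89.9 CPM in GTEA1 replicates 1 to 4, 91.4, 92.8, 96.4 and 88.5 CPM in GTEA7 replicates 1 to 4, and 83.6, 96.0 and 87.1 CPM in DMSO replicates 1 to 3. The 3 groups overlapped throughout. The log2 fold changes were 0.029 ± 0.047, adjusted p = 0.6 with GTEA1, 0.052 ± 0.047, adjusted p = 0.47 with GTEA7, and -0.024 ± 0.044, adjusted p = 0.63 between the extracts, none of which passed. The first turned to -0.13 with library totals alone and then passed as lower (adjusted p = 0.017), as did the third, also -0.13 (adjusted p = 0.0092), and the first was -0.018 without DMSO replicate 1 or without GTEA1 replicate 1.

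The ratio of HADHA to HADHB counts within a library does not depend on that choice. It was 1.49, 1.64, 1.71 and 1.58 in GTEA1 replicates 1 to 4, 2.01, 1.96, 1.94 and 2.11 in GTEA7 replicates 1 to 4, and 2.06, 1.88 and 2.01 in DMSO replicates 1 to 3. Every GTEA1 library was below every other library, while GTEA7 and DMSO overlapped. The difference in mean log2 ratio was -0.31 for GTEA1 against DMSO and -0.32 for GTEA1 against GTEA7. Each had an exact two-sided permutation p of 0.0286, the smallest these group sizes can give, and an adjusted p of 0.0571, which does not pass. As for CPT1A to CPT2, the adjusted threshold was out of reach unless most of the ratio tests gave that smallest p. GTEA7 against DMSO gave 0.015 (exact permutation p = 0.771, adjusted 0.857). Pseudogene copies took few reads as counted, 22 for HADHAP1, 25 for HADHAP2 and 3 for HADHBP1 over all 11 libraries, though how reads shared with such copies were treated is not given in the sources used here.

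**Figure D2:**
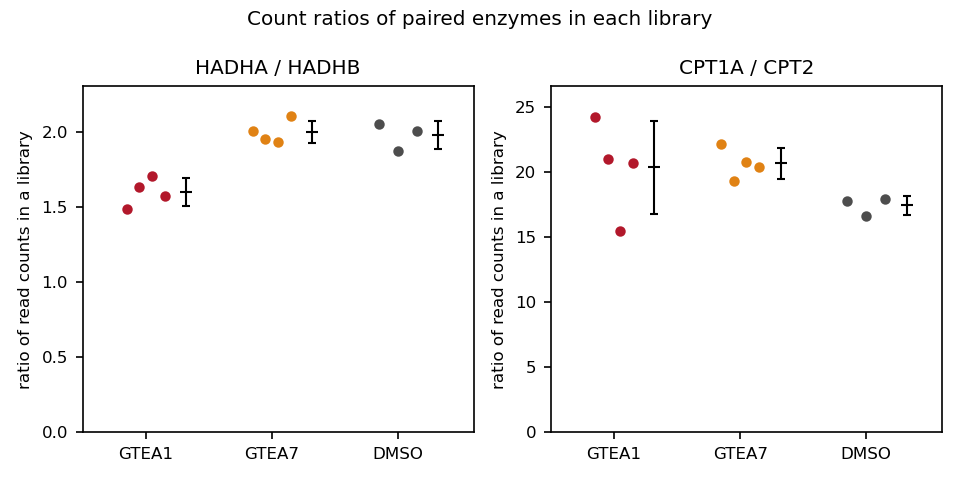
Ratio of read counts within each library for HADHA over HADHB (left) and CPT1A over CPT2 (right), linear axes from 0, with GTEA1, GTEA7 and DMSO from left to right; points are libraries, bars the mean and SD. HADHA to HADHB runs from 1.49 to 1.71 with GTEA1, below the 1.88 to 2.11 of the other libraries, and CPT1A to CPT2 is widest with GTEA1, at 15.5 to 24.2.

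HADHA and HADHB lie head to head, with RefSeq starts 307 bases apart and windows that share 194 bases, HADHA at chr2:26244583-26244882 on the minus strand and HADHB at chr2:26244689-26244988 on the plus strand (GRCh38.p14). They are printed together because HADHA passed with GTEA1 while HADHB, which starts beside it, did not. None of the 7 motifs was found in either:
HADHA: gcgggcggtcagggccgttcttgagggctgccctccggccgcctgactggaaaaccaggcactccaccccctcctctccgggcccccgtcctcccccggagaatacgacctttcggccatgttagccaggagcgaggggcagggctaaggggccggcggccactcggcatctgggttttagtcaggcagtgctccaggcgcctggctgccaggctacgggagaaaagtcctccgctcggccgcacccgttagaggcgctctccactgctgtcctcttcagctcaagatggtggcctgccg
HADHB: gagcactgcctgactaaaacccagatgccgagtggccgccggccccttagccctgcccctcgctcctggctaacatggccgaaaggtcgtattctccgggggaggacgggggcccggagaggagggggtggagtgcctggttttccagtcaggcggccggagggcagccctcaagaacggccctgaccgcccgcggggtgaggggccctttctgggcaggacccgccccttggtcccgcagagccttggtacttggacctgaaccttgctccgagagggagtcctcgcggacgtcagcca

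ETFDH encodes the electron transfer flavoprotein dehydrogenase of the inner membrane, which hands electrons from acyl-CoA dehydrogenases to ubiquinone. ETFDH had 31.2, 28.9, 28.0 and 32.6 CPM in GTEA1 replicates 1 to 4, 17.9, 16.9, 19.3 and 19.3 CPM in GTEA7 replicates 1 to 4, and 18.4, 18.5 and 16.7 CPM in DMSO replicates 1 to 3. The GTEA1 libraries were all above the rest, and GTEA7 and DMSO overlapped. ETFDH rose 1.69-fold with GTEA1 (log2 fold change 0.75 ± 0.07, adjusted p = 6.1e-14) and was higher with GTEA1 than with GTEA7 (0.72 ± 0.06, adjusted p = 1.1e-14). The value with GTEA7 was 0.031 ± 0.072, adjusted p = 0.82, which did not pass. In GENCODE v29, 10.9% of the ETFDH exon bases overlap PPID and 2.92% overlap C4orf46, both on the other strand. With GTEA1 their log2 fold changes were 0.19 (adjusted p = 0.00022) and -1.66 (adjusted p = 2.9e-26), and their part in the ETFDH value was not tested.

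Against DMSO, 7 of the 9 genes passed with GTEA1, 3 higher and 4 lower, where 71.8% of all tested genes passed (35.6% higher and 36.2% lower). With GTEA7, 4 of the 9 passed, all higher, where 22.5% of all tested genes passed (12% higher and 10.4% lower). Between the extracts 8 of the 9 passed, 3 higher and 5 lower with GTEA1, where 72.7% of tested genes passed (36.4% higher and 36.2% lower). With library totals alone the counts were 9 (3 higher and 6 lower), 2 (both higher) and 9 (3 higher and 6 lower). The shares with GTEA1 are near those of all genes, so how many of the 9 passed does not mark them out.

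With GTEA1 against DMSO the groups did not overlap for 8 genes, 3 higher and 5 lower, where 68.7% of all tested genes did not overlap (33.9% higher and 34.8% lower). With GTEA7 against DMSO this held for 6, all higher, against 30.5% of all genes (15.6% higher and 14.9% lower). Between the extracts it held for 8, 3 higher and 5 lower with GTEA1, against 65.3% (32.5% higher and 32.8% lower). The median log2 fold change of the 9 genes was -0.063 with GTEA1, 0.070 with GTEA7 and -0.35 with GTEA1 against GTEA7, beside -0.0078, -0.0087 and -0.00039 over all tested genes. Both comparisons against DMSO use the same 3 control libraries.

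**Figure D3:**
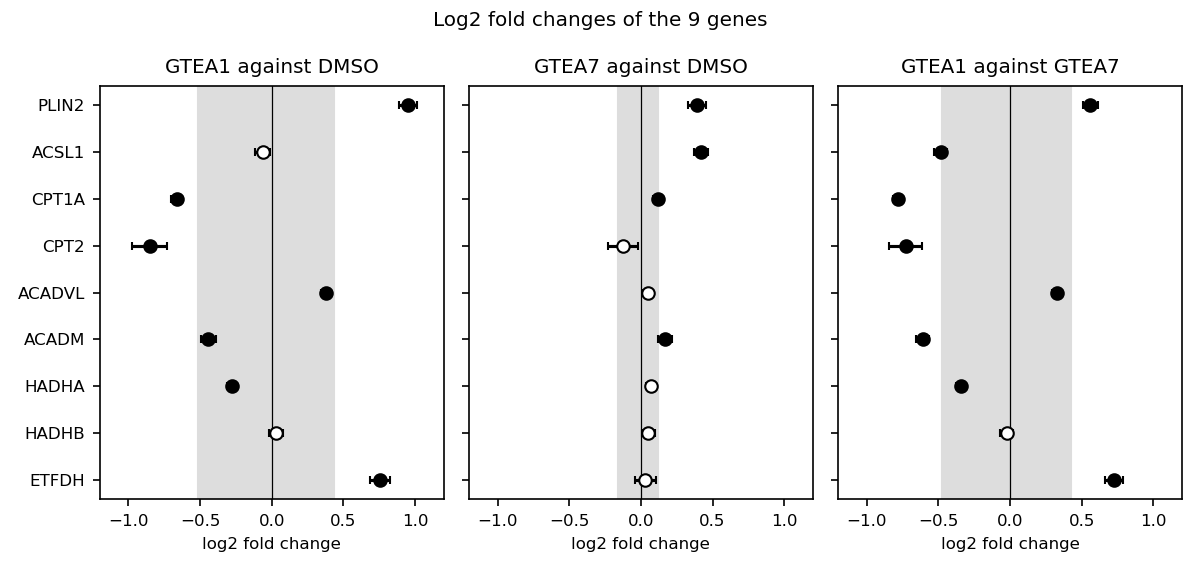
Log2 fold changes (points) and SE (bars) of the 9 genes with GTEA1 against DMSO (left), GTEA7 against DMSO (middle) and GTEA1 against GTEA7 (right); filled points passed, and the grey band spans the interquartile range of all 17963 tested genes. With GTEA1 the points run from -0.85 for CPT2 to 0.95 for PLIN2, and with GTEA7 from -0.12 to 0.42.

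Levels can be compared between genes only per length. Per kilobase of exon (GENCODE v29, all exons merged), ACADVL was the most abundant of the 9, at 91.9 CPM per kilobase with GTEA1, 73.2 with GTEA7 and 70.8 with DMSO. HADHA came next, at 33.1, 42.1 and 40.1 CPM per kilobase, and CPT2 was last in every group, at 0.435, 0.723 and 0.788. In DMSO the order between these was CPT1A (21.9 CPM per kilobase), HADHB (20.8), ACADM (13.3), ACSL1 (5.55), PLIN2 (4.40) and ETFDH (3.97). CPT1A and HADHB, and ACSL1 and PLIN2, change places when the longest coding transcript is the length, so the order within those pairs is not fixed by these data. With GTEA1, PLIN2 reached 8.53 CPM per kilobase and stood above ACSL1, at 5.31.

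Among 9830 tested genes with a mean of at least 10 CPM, those whose log2 CPM over the 11 libraries was most like that of CPT1A were SUB1 and BNIP2, each with a Pearson r of 0.998. For HADHA they were PPP1CC (0.994) and RAB26 (0.993), and for PLIN2 they were GCLM (0.994) and LYPLA1 (0.991). The libraries form 3 groups, so these values describe a shared order of group means, and for CPT1A 152 genes had an r over 0.99.

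PLIN3, PLIN4 and PLIN5, like PLIN2, rose with GTEA1, and none of the 3 passed with GTEA7. PLIN3, the most abundant by CPM, had 139, 141, 144 and 129.7 CPM in GTEA1 replicates 1 to 4, 82.7, 88.2, 79.9 and 82.6 CPM in GTEA7 replicates 1 to 4, and 75.3, 78.6 and 83.6 CPM in DMSO replicates 1 to 3. GTEA1 stood clear of the other groups, which overlapped. PLIN3 rose with GTEA1 (log2 fold change 0.81 ± 0.04, adjusted p = 1.3e-22), and its value with GTEA7 was 0.078 ± 0.044, adjusted p = 0.21. PLIN4 averaged 12.2 ± 0.905 CPM with GTEA1, 6.04 ± 0.765 with GTEA7 and 6.18 ± 0.405 with DMSO (SD, n = 4, 4 and 3), a log2 fold change of 0.98 ± 0.11, adjusted p = 1.4e-11 with GTEA1. PLIN5, known for tying droplets to mitochondria in oxidative tissue, averaged 11.2 ± 0.865, 5.87 ± 0.555 and 5.20 ± 0.217 CPM in the same order and rose with GTEA1 by 1.10 ± 0.11, adjusted p = 1.1e-12. PLIN1, the perilipin of fat cells, had few reads: 7, 14, 14 and 18 counts in GTEA1 replicates 1 to 4, 6, 4, 3 and 6 in GTEA7 replicates 1 to 4, and 4 in each DMSO library. It passed the filter on low counts only through its GTEA1 libraries, so these counts are given as a description. PLIN3, PLIN4 and PLIN5 were each higher with GTEA1 than with GTEA7. PLIN1, PLIN4 and PLIN5 were named after their values were seen. PLIN5 shares 21.7% of its exon bases with AC011498.4 on the same strand, which had a log2 fold change of 1.19 with GTEA1.

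For each list count below, the shares over all tested genes were 35.6% higher and 36.2% lower with GTEA1, and 12% and 10.4% with GTEA7. Across the lipid droplet coat and assembly list, PLIN2 included, 9 of 18 tested genes rose and 5 fell with GTEA1, against 6 and 8 with library totals alone. PLIN1, which entered the test only through GTEA1, is 1 of the 9. LDAF1, which works with seipin where droplets form, rose with GTEA1 (26.5 ± 1.49 CPM with GTEA1 and 13.4 ± 1.15 with DMSO, log2 fold change 0.99 ± 0.07, adjusted p = 6.9e-17). HILPDA, an inhibitor of triglyceride lipolysis, went the other way. HILPDA had 9.28, 10.1, 9.23 and 10.5 CPM in GTEA1 replicates 1 to 4, 14.6, 16.7, 15.4 and 19.4 CPM in GTEA7 replicates 1 to 4, and 19.5, 19.6 and 19.1 CPM in DMSO replicates 1 to 3. GTEA1 was the lowest with no overlap, and GTEA7 replicate 4 lay among the DMSO libraries. HILPDA fell with GTEA1 (-0.99 ± 0.09, adjusted p = 2.1e-14). The fall with GTEA7 (-0.24 ± 0.08, adjusted p = 0.021) did not pass without DMSO replicate 1 or 2 or without GTEA7 replicate 1 or 3 (adjusted p 0.061 to 0.11), nor by DESeq2's Wald test (adjusted p = 0.071). LDAH, a droplet-associated hydrolase, fell with GTEA1 (-0.69 ± 0.06, adjusted p = 1.3e-14), as did DGAT2, which makes triglyceride (-0.59 ± 0.14, adjusted p = 0.00014). BSCL2, the seipin gene, fell with GTEA1 (-0.58 to -0.22 leaving out 1 library at a time) and with GTEA7 (-0.54 to -0.43). It had only 30 to 67 counts a library, and its GTEA1 and DMSO libraries overlapped. With GTEA7 it did not pass by DESeq2's Wald test or without GTEA7 replicate 1 or 3. It shares 40.6% of its exon bases with HNRNPUL2-BSCL2 on the same strand. With GTEA7, 3 of the 18 rose and 2 fell, against 3 and 4 with library totals alone. Besides PLIN2, the sterol esterifying enzyme SOAT1 (0.21 ± 0.04, adjusted p = 0.00012) and the droplet budding factor FITM2 (0.26 ± 0.07, adjusted p = 0.004) rose.

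**Figure D4:**
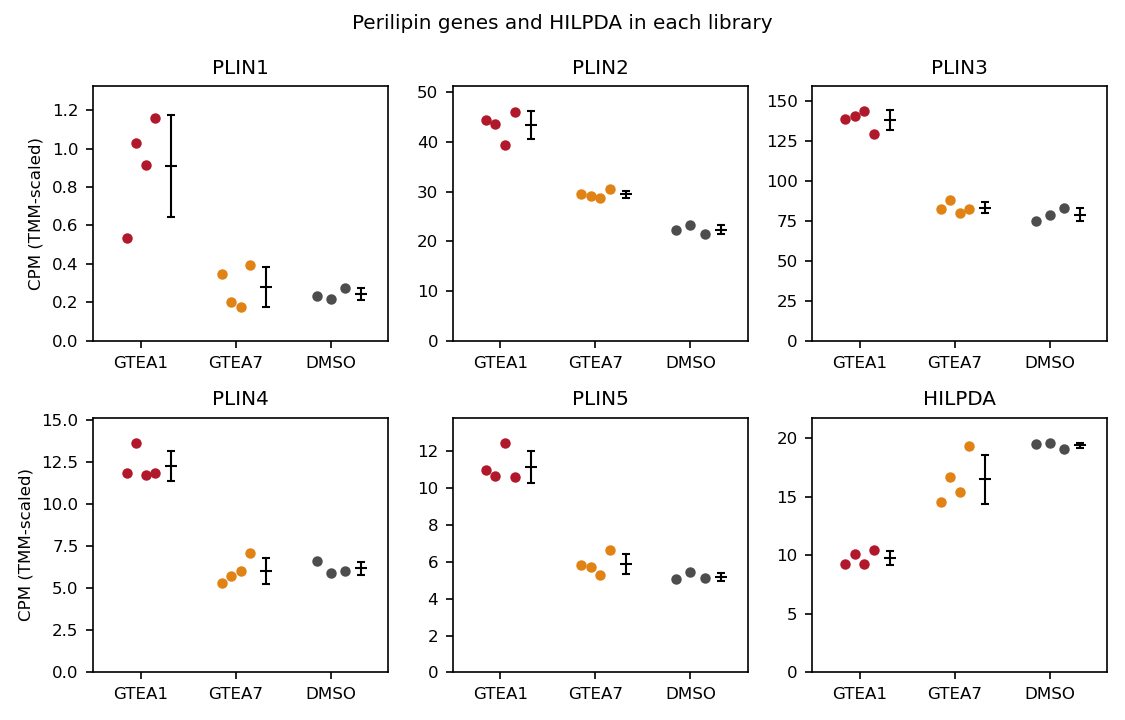
CPM (TMM-scaled, linear axis from 0) of 5 perilipin genes and HILPDA in each library, with GTEA1, GTEA7 and DMSO from left to right; points are libraries, bars the group mean and SD. In each perilipin panel the GTEA1 libraries are the highest, the GTEA7 libraries of PLIN2 lie above those with DMSO, and HILPDA is lowest with GTEA1.

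Of the genes that release fatty acids from stored lipid, 3 of 8 rose and 2 fell with GTEA1, against 3 and 4 with library totals alone. With GTEA7, 4 rose and none fell, against 3 and 1. MGLL, monoacylglycerol lipase, showed the largest change of that list. It had 18.0, 22.8, 20.8 and 22.8 CPM with GTEA1, 6.51, 6.50, 6.43 and 6.50 CPM with GTEA7 and 5.11, 5.18 and 6.28 CPM with DMSO, so that GTEA1 was clear of both other groups. It rose 3.85-fold with GTEA1 (log2 fold change 1.94 ± 0.10, adjusted p = 2.8e-23), and its value with GTEA7 (0.24 ± 0.12, adjusted p = 0.14) did not pass. PNPLA2, adipose triglyceride lipase, rose with GTEA1 (0.30 ± 0.06, adjusted p = 9.5e-06). LIPA, the lysosomal acid lipase, fell with GTEA1 (-0.36 ± 0.05, adjusted p = 8.7e-09) and rose with GTEA7 (0.45 ± 0.05, adjusted p = 7.3e-11), the pattern of ACSL5.

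In the list for fatty acid uptake and activation, 4 of 18 tested genes rose and 9 fell with GTEA1, against 3 and 11 with library totals alone. With GTEA7, 8 rose and 1 fell, against 7 and 3 with library totals alone. The intracellular carriers fell with GTEA1: FABP5, a cytosolic fatty acid binding protein, averaged 34.5 ± 1.14 CPM with GTEA1 and 69.8 ± 4.68 with DMSO (log2 fold change -1.02 ± 0.06, adjusted p = 2.2e-19), and DBI, the acyl-CoA binding protein, averaged 38.2 ± 1.99 and 71.2 ± 6.34 CPM (-0.90 ± 0.06, adjusted p = 2.1e-14). DBI rose with GTEA7 (0.38 ± 0.05, adjusted p = 2.9e-06), and the value for FABP5 was 0.13 ± 0.05, adjusted p = 0.059. The transport proteins SLC27A1 and SLC27A4 rose with GTEA1 (0.70 ± 0.06, adjusted p = 4.1e-15, and 0.62 ± 0.06, adjusted p = 7e-13). With GTEA7 SLC27A4 rose (0.21 to 0.29 leaving out 1 library at a time), and SLC27A1 was the 1 gene that fell (-0.23 to -0.15). SLC27A1 did not pass with no low-count filter, by DESeq2's Wald test, or without DMSO replicate 3 or GTEA7 replicate 1 or 3. SLC27A2 rose with both extracts, by 0.59 ± 0.08, adjusted p = 2.9e-09 with GTEA1 and 0.49 ± 0.08, adjusted p = 2.2e-06 with GTEA7.

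Around the carnitine shuttle, 5 of 11 tested genes rose and 3 fell with GTEA1, against 3 and 4 with library totals alone. While CPT1A and CPT2 fell, the carnitine importer gene SLC22A5 rose (50.2 ± 4.06 CPM with GTEA1 and 29.9 ± 1.42 with DMSO, log2 fold change 0.75 ± 0.06, adjusted p = 3.7e-15). TMLHE, the first enzyme of carnitine synthesis, and CRAT, carnitine acetyltransferase, rose too (0.69 ± 0.11, adjusted p = 4.6e-07, and 0.63 ± 0.06, adjusted p = 2.3e-12). CPT1C, a relative of CPT1A, also rose with GTEA1 (0.22 to 0.40 leaving out 1 library at a time), although GTEA1 replicate 4 (7.64 CPM) lay among the DMSO libraries. ACACB, which makes the malonyl-CoA that inhibits CPT1, fell with GTEA1 (-0.62 ± 0.07, adjusted p = 6.2e-11) and with GTEA7 (-0.30 ± 0.07, adjusted p = 0.00048). In all, 2 of the 11 rose and 1 fell with GTEA7, against none and 1 with library totals alone.

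In the mitochondrial cycle itself, 3 of 12 tested genes rose and 7 fell with GTEA1, against 3 and 9 with library totals alone. The hydratase ECHS1 fell with GTEA1 (28.6 ± 2.31 CPM with GTEA1 and 48.3 ± 2.29 with DMSO, log2 fold change -0.76 ± 0.06, adjusted p = 1.7e-16), as did HSD17B10 (-0.61 ± 0.07, adjusted p = 1.4e-11), the reductase DECR1 (-0.46 ± 0.06, adjusted p = 4.4e-10), the thiolase ACAA2 (-0.44 ± 0.09, adjusted p = 8.6e-06) and the short-chain dehydrogenase HADH (-0.24 ± 0.05, adjusted p = 0.00012). The isomerases ECI1 and ECI2, needed for unsaturated chains, rose with ACADVL (0.58 ± 0.06, adjusted p = 3.6e-13, and 0.42 ± 0.07, adjusted p = 1.3e-06), and 27.1% of the ECI2 exon bases overlap C6orf201 on the other strand, itself higher with GTEA1 (1.36). With GTEA7 ACADM was the only 1 of the 12 to pass, and with library totals alone none did.

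Of the electron transfer flavoprotein and flavin supply genes, 7 of 9 rose with GTEA1, ETFDH among them, and none fell, against 4 and 2 with library totals alone. SLC25A32, also among the 7, had few reads: 16 to 19 counts in the GTEA1 libraries, 7 to 12 with GTEA7 and 5 to 11 with DMSO. It passed the filter on low counts only through its GTEA1 libraries. It also shares 69.7% of its exon bases with AC012213.5 on the same strand. The flavoprotein subunits themselves did not pass with GTEA1: ETFA had a log2 fold change of 0.032 ± 0.044, adjusted p = 0.52, and ETFB -0.19 ± 0.11, adjusted p = 0.13. RFK, riboflavin kinase, rose with GTEA1 (0.46 ± 0.05, adjusted p = 8.7e-11). With GTEA7, 2 of the 9 rose and none fell, and with library totals alone or without DMSO replicate 1 none passed. They were ETFA (83.1 ± 2.72 CPM with GTEA7 and 74.1 ± 3.09 with DMSO, log2 fold change 0.17 ± 0.04, adjusted p = 0.0034) and RFK (0.14 ± 0.05, adjusted p = 0.05), whose call lies at the edge of the threshold. Among 7 other dehydrogenases that use the flavoprotein, 2 rose and 3 fell. DMGDH, dimethylglycine dehydrogenase of choline breakdown, had 30.2, 35.0, 34.2 and 38.9 CPM with GTEA1, 3.86, 3.28, 3.18 and 2.82 CPM with GTEA7 and 2.88, 2.48 and 2.48 CPM with DMSO. GTEA1 was far above the other groups, a 13.2-fold rise (log2 fold change 3.72 ± 0.11, adjusted p = 1.5e-33), and the value with GTEA7 was 0.33 ± 0.16, adjusted p = 0.14.

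Peroxisomal genes were divided, with 6 of 14 higher and 6 lower with GTEA1, against 2 and 7 with library totals alone. EHHADH, a bifunctional enzyme of that pathway, fell with GTEA1 (9.86 ± 0.512 CPM with GTEA1 and 21.9 ± 1.55 with DMSO, log2 fold change -1.16 ± 0.08, adjusted p = 1.6e-18), while HSD17B4, another bifunctional enzyme, rose (0.33 ± 0.04, adjusted p = 3.9e-11). HACL1, a lyase of alpha-oxidation, rose with GTEA1 (1.17 ± 0.08, adjusted p = 2.1e-18). With GTEA7, 5 rose and 1 fell, against 2 and 2 with library totals alone, and the count of 6 dropped to 3 without DMSO replicate 1.

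Thioesterases, which undo the activation step, had 1 of 6 higher and 3 lower with GTEA1, against none and 4 with library totals alone. ACOT7 fell by the smallest p (-0.51 ± 0.05, adjusted p = 4.6e-13), and ACOT11 alone was lower with GTEA7 (-0.50 ± 0.07, adjusted p = 7.8e-08). The higher gene, ACOT8, also did not pass with no low-count filter, a replicate block, DESeq2's Wald test, or without DMSO replicate 1 or 2 or GTEA1 replicate 1, 2 or 4. It shares 35.3% of its exon bases with SNX21 on the other strand, whose log2 fold change with GTEA1 was 0.44. Of 4 tested ketone body enzymes, 1 rose and 2 fell with GTEA1, against none and 3 with library totals alone. ACAT1, a mitochondrial thiolase, and OXCT1, which activates ketone bodies, fell with GTEA1 (-0.70 ± 0.05, adjusted p = 1.4e-16, and -0.30 ± 0.05, adjusted p = 3.4e-06). With GTEA7 2 rose and none fell, against 1 and none with library totals alone. They were OXCT1 (0.21 ± 0.05, adjusted p = 0.0015) and ACAT1 (0.14 to 0.25 leaving out 1 library at a time).

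Of 21 tested regulators of oxidation, 13 were higher and 4 lower with GTEA1, or 10 and 7 with library totals alone. Of this list 81% passed, beside 71.8% of all tested genes (35.6% higher and 36.2% lower). TFE3, a transcription factor of lysosomal and lipid breakdown genes, averaged 96.1 ± 6.37 CPM with GTEA1, 30.8 ± 1.46 with GTEA7 and 30.8 ± 1.45 with DMSO (SD, n = 4, 4 and 3), a log2 fold change of 1.64 ± 0.05, adjusted p = 7.3e-32 with GTEA1. PRKAB2 and PRKAG1, subunits of the energy sensor AMP-activated protein kinase, rose with GTEA1 (1.34 ± 0.04, adjusted p = 4.8e-32, and 0.88 ± 0.05, adjusted p = 3.8e-23). PPARG, a nuclear receptor for fatty acids that drives lipid storage, rose with GTEA1 (1.22 ± 0.06, adjusted p = 3.2e-25) and less with GTEA7 (0.58 ± 0.06, adjusted p = 2.9e-11), and the difference between the extracts was 0.64 ± 0.05, adjusted p = 8e-17. Its groups kept the order of PLIN2, at 59.1 ± 3.26 CPM with GTEA1, 38.0 ± 1.49 with GTEA7 and 25.4 ± 1.60 with DMSO. That order was not particular to PPARG, since PRKAG1, PRKAG2 and DDHD2 kept it too, and a link between PPARG and PLIN2 was not tested. PPARGC1B, a coactivator of oxidative genes, fell with GTEA1 (-0.27 ± 0.06, adjusted p = 2.8e-05). HNF4A (-0.63 to -0.44 leaving out 1 library at a time), SIRT3 (-0.34 to -0.20) and RXRA (-0.245 to -0.18) fell with GTEA1 too. With GTEA7, 3 of the 21 rose and 2 fell, against 3 and 4 with library totals alone. The 2 were RXRA (-0.28 to -0.20) and SIRT3 (-0.30 to -0.16).

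Genes listed as targets of peroxisome proliferator-activated receptors, which include 5 of the 9 genes above, had 5 of 12 higher and 4 lower with GTEA1, against 3 and 4 with library totals alone, and 4 higher and none lower with GTEA7. ECH1, a dienoyl-CoA isomerase, rose with both extracts, by 0.54 ± 0.09, adjusted p = 4.5e-07 with GTEA1 and 0.32 ± 0.09, adjusted p = 0.0062 with GTEA7.

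Over all these lists without the 9 genes, 122 of 145 genes were tested. With GTEA1 52 rose and 40 fell (75.4% passed, near the 71.8% of all tested genes), with a median log2 fold change of 0.025, and with library totals alone 34 rose and 56 fell. With GTEA7 27 rose and 9 fell (29.5% passed, beside 22.5% of all tested genes), with a median of 0.059, against 18 and 18 with library totals alone. Between the extracts 45 were higher and 47 lower with GTEA1, where 72.7% of all tested genes passed. Of the genes named from these lists, PLIN3, PNPLA2, HACL1, PRKAG1, SLC27A2, ACOT7, ECH1 and ECI2 each share 10.4% to 27.1% of their exon bases with another annotated gene. SLC25A32, BSCL2 and ACOT8 share more, as given above, and the values of all these genes carry that uncertainty.

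**Figure D5:**
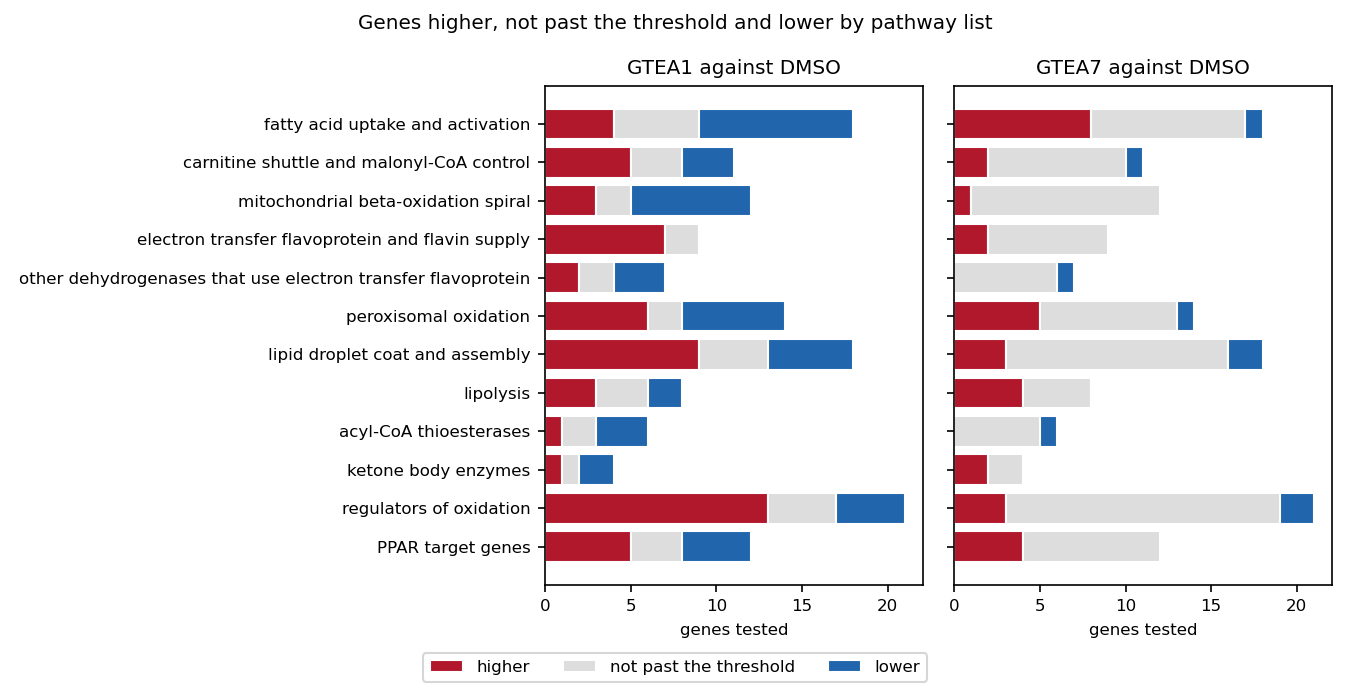
Number of tested genes of each pathway list that were higher (red), did not pass (grey) or were lower (blue) with GTEA1 against DMSO (left) and with GTEA7 against DMSO (right); the 9 genes are counted in their lists and a gene may be in more than 1 list. The flavoprotein and regulator bars are mostly red with GTEA1, the mitochondrial cycle bar mostly blue, and the uptake bar shows 4 higher and 9 lower with GTEA1, and 8 higher and 1 lower with GTEA7.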

How the data were processed

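Poly(A) RNA libraries were sequenced on an Illumina instrument, and the authors deposited raw read counts per gene in 1 table of 11 columns, each used here. The submitters' processing notes list HTSeq 0.5.4, DESeq 1.10.1, STAR, SAMtools 0.1.18, Picard and GATK with no roles. The genome build, the annotation and the strand setting of the counting were not given in the sources used here. Symbols for 60370 identifiers came from a table of gene names.

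Groups came from the labels. Genes were filtered with filterByExpr and scaled by TMM, and 1 model of the 3 groups was fitted with edgeR 4.0.16 (quasi-likelihood, robust) in R 4.3.3. SEs were derived from the fold change and its F. Count ratios had 0.5 added to each count and were compared on the log2 scale by exact permutation. The method was tested on simulated counts in which a small part of the genes changed, in random directions. Scaling under changes as broad as those with GTEA1 was not tested that way.

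The members and lists were chosen with earlier results of these data known. Per list, the genes named come from the 3 non-members with the smallest adjusted p for GTEA1 and 2 for GTEA7, and those in a direction of 5 or fewer, and not every eligible gene is named. The values of 1 list gene are not reported here. ETFB was named as the partner of ETFA. Alternatives covered DESeq2 size factors, library totals, other filters, limma-voom 3.58.1, DESeq2 1.42.0, only the compared groups, a replicate block and leaving out each library. Promoter sequence is from RefSeq, GRCh38.p14, and exon lengths from GENCODE v29.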

Additional observations from a re-analysis of the deposited data

How the results depend on the processing

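For the 9 genes, 502 fold changes under alternative settings kept their direction and their side of the threshold. Another 6 changed sign, and with the sign kept 3 no longer passed and 2 newly passed. The sign changes concern values near 0 in the main fit. With library totals alone, ACADVL (-0.0013, adjusted p = 0.99) and ETFDH (-0.020, adjusted p = 0.88) changed sign for GTEA7 against DMSO, and only 2 of the 9 genes (PLIN2 and ACSL1) passed with GTEA7. HADHB turned to -0.13 for GTEA1 against DMSO and then passed as lower (adjusted p = 0.017). For GTEA1 against DMSO the same setting turned ALDH9A1 to -0.032 and SOAT1 to -0.018, neither of which then passed. Leaving out 1 library at a time, ETFDH with GTEA7 ran from -0.011 (without DMSO replicate 3) to 0.072, and HADHB with GTEA1 from -0.018 (without DMSO replicate 1 or GTEA1 replicate 1) to 0.091, and neither passed.

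In the same way, 7 of the 9 genes passed each time with GTEA1 against DMSO, 3 to 4 with GTEA7 against DMSO (3 without DMSO replicate 1) and 8 between the extracts. The mean log2 ratio of HADHA to HADHB ran from -0.35 to -0.27 for GTEA1 against DMSO, -0.023 (without DMSO replicate 2) to 0.043 for GTEA7 against DMSO and -0.35 to -0.29 between the extracts. For CPT1A to CPT2 the ranges were 0.12 to 0.33, 0.21 to 0.28 and -0.13 to 0.087 (without GTEA1 replicate 3). Replicate numbers did not pair libraries: same-numbered libraries deviated together with correlations of -0.055 to 0.026 over 10 pairs. With a replicate block, the HADHA to HADHB difference for GTEA7 against DMSO was -0.0097, as without GTEA7 replicate 4, and no call among the 9 genes changed. The cause of the sign changes on leaving out a library was not tested.

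Short lists moved most with GTEA7 against DMSO: over all settings 0 to 2 flavoprotein genes passed, 3 to 7 droplet genes, 3 to 7 peroxisomal genes, 1 to 3 carnitine shuttle genes, 1 to 2 ketone body enzymes, 1 to 2 thioesterases, 1 to 2 other flavoprotein-linked dehydrogenases, 0 to 1 genes of the mitochondrial cycle and 2 to 5 receptor targets. The other dehydrogenases between the extracts numbered 3 to 5. For named genes outside the 9, 116 values no longer passed under an alternative and 3084 stayed as they were. CPT2 had too few reads to resolve changes as small as those of the other members, its SE being 0.11 to 0.12.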
